A study of Homo sapiens with 3 samples.

Results

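The cells described here are 631 of the 3795 day 23 (D23) cells kept after quality filtering, or 16.6% (95% exact binomial interval 15.5 to 17.9%), with high NEFM, MSX2, ZIC1, ZIC2 or CRABP1, no more than traces of pigment genes and little HES6 or DLL3. They are called the NEFM, MSX and ZIC-high cells. Each cell was given 4 scores per 10000 of its unique molecular identifiers (UMIs, the counted transcript molecules). The pigment score M sums PMEL, MLANA, DCT and TYRP1. The mesenchymal score S sums COL5A1, COL6A3, LUM, PRRX1, THBS1 and TGFBI. The neural score N sums NEFM, MSX2, ZIC1, ZIC2 and CRABP1, and the neurogenic score P sums HES6 and DLL3. A cell was selected when M was under 5, N was at least 5 and above S, and P was under 10. These 17 genes chose the cells, so their levels describe the selection and are not findings.

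Human pluripotent stem cells were grown as aggregates and then in a melanocyte differentiation medium with conditioned medium of L-Wnt3a cells, SCF, endothelin-3, cholera toxin, bFGF, dexamethasone and the phorbol ester TPA, plated on fibronectin, and later passaged with serum and without TPA. Cells were taken at D23, D32 and D44 as 1 culture and 1 droplet library a day. D32 and D44 are later harvests of the same induction, sequenced in a common batch, whereas D23 stems from a separate induction and sequencing run, so D23 and its batch cannot be told apart. The labels conflict on the starting cells: titles name induced pluripotent cells, and the cell line field names H9, a human embryonic stem cell line. With 1 library for each day there is no replicate error, no test was made, and every interval given is a 95% exact interval of counting error only. The kept libraries hold 49846673 UMIs at D23, 241341185 at D32 and 266709913 at D44, from 15629 kept cells of 22522 barcodes in the series. D23 shared 16 barcodes with D32 and 9 with D44, of which 1 each belonged to the selected cells.

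At the neural plate border, between neural plate and surface ectoderm, MSX, ZIC, PAX3 and TFAP2 factors mark the tissue that gives rise to neural crest, dorsal neural tube and placodes. Pre-migratory crest cells in the dorsal neural folds turn on FOXD3, SNAI2, SOX9, SOX10 and ETS1 before they leave by an epithelial-to-mesenchymal transition, and melanocytes arise later from migrating crest and from Schwann cell precursors. The roof plate lies at the same dorsal midline and secretes BMP and WNT signals, with GDF7 and LMX1A among its known markers.

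The homeobox genes MSX1 and MSX2 and the zinc finger gene ZIC1 are the border factors among the markers of the proposed label. MSX2 and ZIC1 are rule genes, so their high levels only describe the selection, and MSX1 is not. The 250 bases before the RefSeq start of each are shown as reference sequence for these border factors. All lie on the plus strand of GRCh38.p14, at chr4:4859415-4859664 for MSX1, chr5:174724332-174724581 for MSX2 and chr3:147409115-147409364 for ZIC1. None overlaps an exon of the GENCODE annotation, in which a longer ZIC1 gene model begins upstream of its window. Capitals mark CCAAT boxes, searched as CCAAT and, on the other strand, ATTGG.
MSX1: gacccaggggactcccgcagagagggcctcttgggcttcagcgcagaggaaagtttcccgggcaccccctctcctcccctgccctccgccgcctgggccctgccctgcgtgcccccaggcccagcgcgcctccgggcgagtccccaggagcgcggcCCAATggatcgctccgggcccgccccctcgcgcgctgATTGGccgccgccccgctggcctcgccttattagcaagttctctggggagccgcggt
MSX2: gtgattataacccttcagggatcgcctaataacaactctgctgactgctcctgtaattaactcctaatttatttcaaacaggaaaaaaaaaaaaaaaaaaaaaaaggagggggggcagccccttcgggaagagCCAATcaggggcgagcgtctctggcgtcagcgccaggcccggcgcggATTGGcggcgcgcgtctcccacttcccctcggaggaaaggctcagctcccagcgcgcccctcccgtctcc
ZIC1: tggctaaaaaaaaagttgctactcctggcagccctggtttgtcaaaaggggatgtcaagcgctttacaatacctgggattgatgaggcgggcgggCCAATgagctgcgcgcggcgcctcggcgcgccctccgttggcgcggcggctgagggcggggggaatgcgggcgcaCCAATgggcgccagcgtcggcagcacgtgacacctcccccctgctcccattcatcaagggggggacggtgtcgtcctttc
Each window holds 2 matches, in opposite orientations for MSX1 and MSX2 and both forward for ZIC1. At least 1 match is found in 32% of the 35116 promoter windows of this length, so the motif is common. The GC content is 74% for MSX1, 55.6% for MSX2 and 64.4% for ZIC1, against a median of 58% over all windows. A match describes the letters only.

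Among cells that met the other conditions, the selection left a gap in its neural score and a blurred edge in its pigment score. Within the selected cells N ran from 7.14 through a median of 50.3 to 618 per 10000 UMIs, and the nearest cell outside on N alone had 3.18. Only 2 cells failed on N alone. Cells with low N and S of at least N are not among them, so the gap follows in part from the condition that N exceeds S. In contrast, 58 cells failed on M alone, of which 21 had M under 2 times its limit, and the highest M inside was 4.97 while the lowest outside was 5.02. P separated 110 cells, with 6.97 as the highest value inside and 10.4 as the lowest outside, and 59 cells failed only because S was at least N. All 5 N genes were seen in 420 selected cells (66.6%) and 4 of them in another 155. NEFM alone would have carried 543 cells over the minimum, CRABP1 373, MSX2 224, ZIC1 105 and ZIC2 23.

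**Figure D1:**
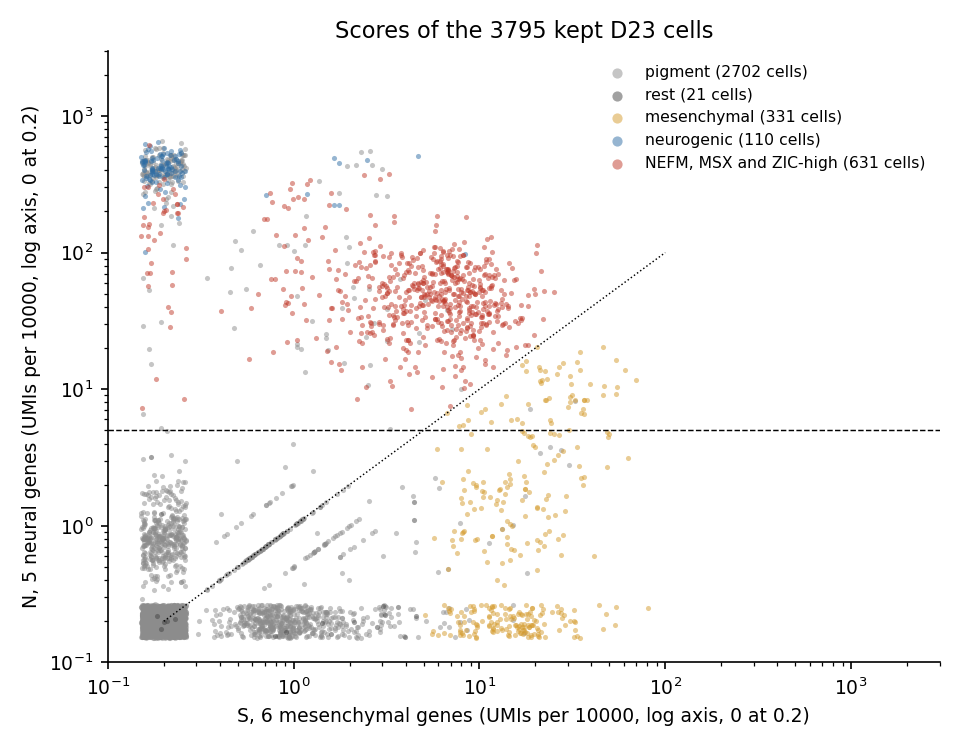
Neural score N against mesenchymal score S for the 3795 kept D23 cells, both in UMIs per 10000 on log axes with 0 drawn at 0.2, and 1 point a cell coloured by group. The dashed line is the N minimum of 5 and the dotted line is N equal to S, and the 631 selected cells form a cloud above both lines around a median N of 50.3 and a median S of 5.71.

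The selected cells had a median of 14282 UMIs, 3881 genes and 4.08% mitochondrial UMIs. The other 3164 kept D23 cells had a median of 12255.5 UMIs and consisted of 2702 pigment cells with M of at least 5 (median 12488.5 UMIs), 110 neurogenic cells with low M, high N and P of at least 10 (5501 UMIs), 331 mesenchymal cells with low M and S of at least 5 and at least N (12029 UMIs), and 21 cells in none of these groups. The comparison with all others is thus mostly a comparison with pigment cells. A doublet caller marked 56 of the 3795 cells (1.48%) and 5 of the selected cells, and all were kept. Levels below are CPM, the summed UMIs of a gene in a group scaled to a total of 1000000 UMIs, and a gene is called higher or lower when its ratio is at least 2 or at most 0.5 and its level reaches 10 CPM in the higher group. Outside the 17 rule genes, 9313 genes reached that level, of which 841 (9.03%) were higher and 722 (7.75%) lower in the selected cells. The median log2 ratio over all of them was -0.09. Since pigment cells make up most of the others, list counts were also taken against the equally weighted mean level of the pigment, neurogenic and mesenchymal groups, and without the 68 selected cells that clustered with neurogenic cells. Both comparisons of the lists were chosen after seeing the data. They are given for many, but not all, of the results they change.

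The neural plate border list divided between its MSX and ZIC members and its PAX and TFAP2 members. Of its 20 genes, 10 were counted outside the rule, with 6 higher, 4 lower and a median log2 ratio of 1.79. The equally weighted mean left 4 of 10 higher and 4 lower. MSX1 stood at 666 CPM in the selected cells and 50.9 in the others, a ratio of 13.1 (12.4 to 13.8). Mesenchymal cells came nearest with 318 CPM, and pigment cells had 20.0 and neurogenic cells 23.1. ZIC4 and ZIC5, which the rule did not use, were high as well. ZIC4 had 67.9 against 2.82 CPM and ZIC5 41.5 against 3.00, ratios of 24.0 (19.7 to 29.6) and 13.8 (11.3 to 17.1). Neurogenic cells had them too, with 31.8 CPM of ZIC4 and 60.7 of ZIC5, and against the equally weighted mean the ratio of ZIC5 was 1.87, under the 2-fold limit.

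ZIC1 and ZIC4 lie head to head on chromosome 3. With the longer GENCODE model of ZIC1, their starts lie 13387 bases apart and the genes overlap. The RefSeq start of ZIC1 used for the sequence above lies outside ZIC4. ZIC2 and ZIC5 lie head to head on chromosome 13 with 10017 bases between their starts. The sources used here do not say whether reads were counted by strand, so reads in the ZIC1 and ZIC4 overlap may be shared. HES1, a Notch target, was at 193 against 56.7 CPM. The Iroquois factor IRX2 was at 40.3 against 11.4 CPM, but at 35.7 in the equally weighted mean.

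PAX3 and the TFAP2 genes went the other way. TFAP2A was at 5.81 CPM in the selected cells and 252 in the others, a ratio of 0.0230 (0.0173 to 0.0300). It was also low in neurogenic cells at 5.78, and mesenchymal cells had 86.1. PAX3 had 17.5 against 120 CPM, a ratio of 0.146 (0.124 to 0.171), with 134 CPM in neurogenic and 56.2 in mesenchymal cells. TFAP2B and TFAP2C were at 2.32 and 1.58 CPM against 71.9 and 46.9.

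Of 13 counted neural crest specifiers 3 were higher and 7 lower than in all others, with a median log2 ratio of -1.27. With equally weighted groups 2 of 13 were higher and 6 lower. Against neurogenic cells 5 were higher and 2 lower of 12, with a median of 0.37, and against mesenchymal cells 2 were higher and 5 lower of 11, with a median of -0.84. SOX10, the factor that crest and pigment cells share, had 2.11 against 102 CPM, a ratio of 0.0206 (0.0126 to 0.0319). FOXD3 rested on 3 UMIs in the selected cells, or 0.317 CPM, against 27.0 in the others. ETS1, a factor of cranial crest, had 32.7 against 271 CPM. SNAI2, which represses epithelial genes at crest delamination, was level at 191 against 194 CPM, a ratio of 0.985 (0.935 to 1.04), and neurogenic cells had only 14.4. The higher members were SOX9 (47.5 against 14.02 CPM) and the HLH factors ID1 (86.4 against 29.1) and ID2 (366 against 31.5). Without the 68 cells that clustered with neurogenic cells ID1 was at 57.8 CPM, under the 2-fold limit. When 10% of the UMIs of each group were taken off as the mean profile of the library, to allow for free RNA, the ratios were lower, at 0.00336 for SOX10, 0.00137 for TFAP2A, 0.0681 for PAX3 and 0.0408 for ETS1. PMEL, a gene the rule holds down, stood at 52.0 CPM in the selected cells, 218 in neurogenic and 37.1 in mesenchymal cells.

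The proposed label is pre-migratory neural crest. Of its markers MSX1, MSX2, ZIC1, NEFM and CDH6, only MSX1 and CDH6 lie outside the rule, and both were higher in the selected cells. Factors that crest cells turn on were divided. SNAI2 was level with all others, and SOX9 and ID2 were higher. FOXD3, SOX10 and TFAP2A were low by their own levels. A FOXD3 UMI was seen in 0.475% of selected cells, a SOX10 UMI in 2.54% and a TFAP2A UMI in 6.34%, whereas mesenchymal cells had 7.24 CPM of FOXD3 and 86.1 of TFAP2A. The cells are therefore named here mainly by genes that chose them, and the name describes the selection. It holds least for sub-cluster 6, described below, which had low NEFM and MSX1. The labels call the samples melanocytes, and in these cells all 9 counted melanocyte genes and all 10 counted genes of migratory crest and Schwann precursors were lower, with median log2 ratios of -5.40 and -5.06. MITF, the master regulator of melanocytes, had 6.86 against 289 CPM. Cells high in pigment genes were left out by the rule, so low values of genes that accompany them describe the selection.

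**Figure D2:**
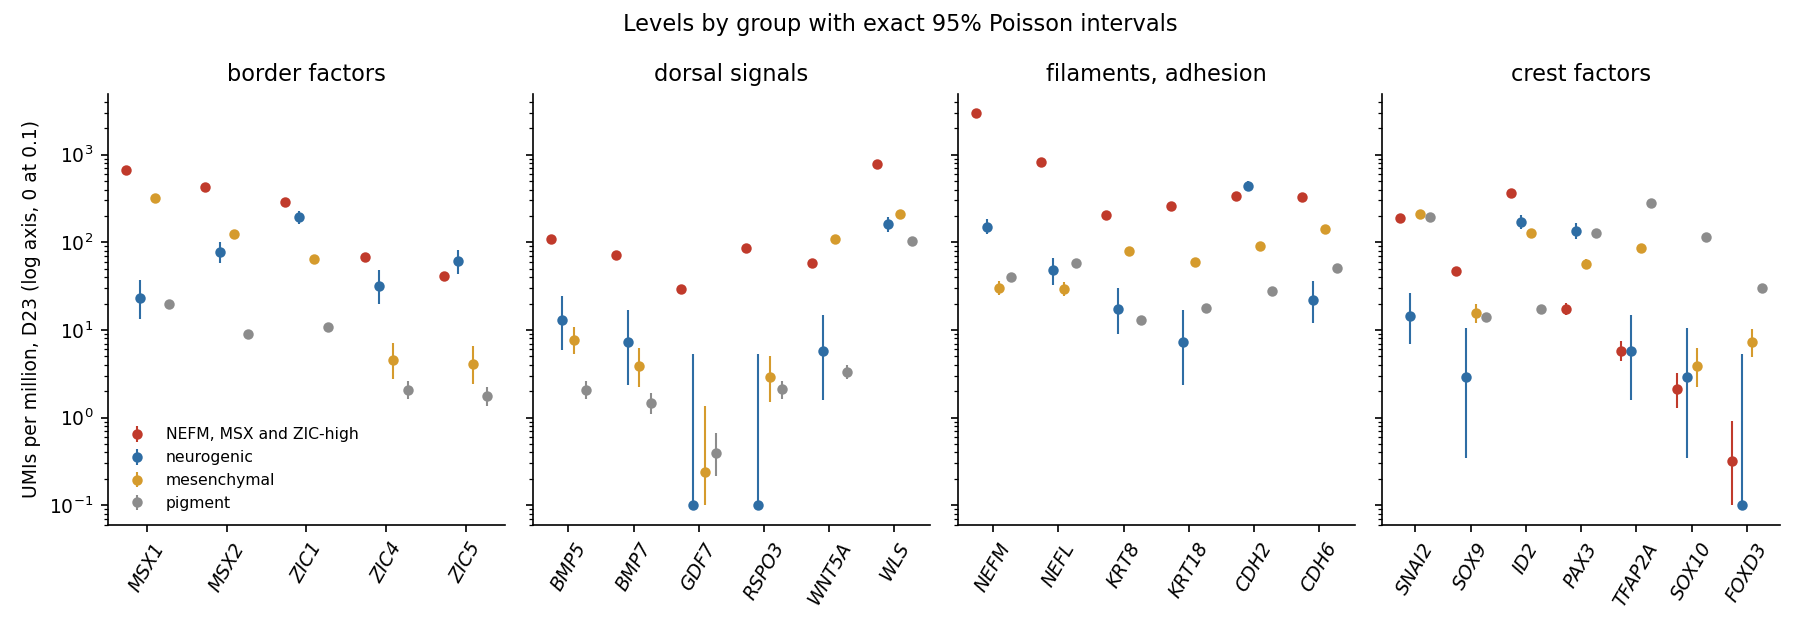
Levels in CPM (log axis, 0 drawn at 0.1) of 24 genes in the 4 D23 groups, with 95% exact Poisson intervals of counting error. The selected cells are highest for MSX1, BMP5, BMP7, GDF7, RSPO3 and NEFL, near the pigment cells for SNAI2, and near the bottom for TFAP2A, SOX10 and FOXD3.

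Several dorsal signals were higher in the selected cells. Of 9 counted roof plate and dorsal genes, 6 were higher and 1 lower, with a median log2 ratio of 2.45. Under the equally weighted mean 6 of 10 were higher and 2 lower. GDF7, a BMP ligand of the roof plate, had 29.1 CPM against 0.371, a ratio of 78.4 (46.7 to 142). No GDF7 UMI was seen in the 691881 UMIs of neurogenic cells, and mesenchymal cells had 1 UMI. BMP5 was at 110 against 2.87 CPM and BMP7 at 71.3 against 1.81, ratios of 38.2 (31.5 to 46.7) and 39.4 (30.9 to 50.9). RSPO3, which amplifies WNT signals, had 85.8 against 2.13 CPM, a ratio of 40.3 (32.2 to 50.9). The roof plate factor LMX1A stayed under the counting level with 8.34 against 0.149 CPM. ATOH1, made by progenitors beside the roof plate, was the lower member at 1.48 against 15.01 CPM, and neurogenic cells had 410. OLIG3, of dorsal progenitors, had 8.76 against 8.99 CPM, and all 83 of its UMIs lay in the 68 selected cells that clustered with neurogenic cells.

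Shares of cells tell the same of these ligands at equal depth. Each cell was thinned to 5000 UMIs, which left 621 selected, 2591 pigment, 74 neurogenic and 315 mesenchymal cells. BMP5 was then seen in 39.6% (35.7 to 43.6%) of selected cells and 1.08% of pigment cells. RSPO3 was seen in 24.6% against 0.540%, and GDF7 in 12.2% against 0.0386%. Before thinning these 3 genes were seen in 67.7%, 42.0% and 28.1% of selected cells and in 1.89%, 0.925% and 0.370% of pigment cells. MSX1 was seen in 81.8% of thinned selected cells, 6.02% of pigment cells and 61.0% of mesenchymal cells.

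The WNT list had 14 of 22 counted genes higher and 1 lower, with a median log2 ratio of 1.51. Against the equally weighted mean 7 of 22 were higher. Among ligands and their export, WNT5A was at 57.3 against 14.3 CPM, WNT3 at 11.2 against 2.06 (8.79 without the 68 cells, under the counting level), and WLS, which carries WNT proteins to the cell surface, at 785 against 116. Among receptors, FZD10 had 19.1 against 1.06 CPM, a ratio of 17.9 (12.8 to 25.6), and FZD6 63.2 against 4.93. AXIN2, a feedback target of canonical WNT signalling, was at 76.8 against 15.6 CPM, a ratio of 4.91 (4.41 to 5.47), and stood at 83.8 in neurogenic and 54.3 in mesenchymal cells, so that its ratio to the equally weighted mean was 1.56. The nuclear factor LEF1 was the lower gene at 6.12 against 31.8 CPM. WNT5A was higher still in mesenchymal cells at 108 CPM.

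In the BMP and TGF-beta list 7 of 23 counted genes were higher and 1 lower, with a median log2 ratio of 0.23. The ligands BMP5, BMP7, GDF7 and GDF10 and the responsive genes ID1, ID2 and SMAD7 made up the higher members, and against the equally weighted mean 6 of 24 were higher and 4 lower. GDF10 (16.8 against 1.09 CPM) rested on few cells, since 136 of its 159 UMIs lay in the 68 cells that clustered with neurogenic cells, and the other selected cells had 2.63 CPM, under the counting level. The receptors were near level, with BMPR1A at 22.8 against 19.4 CPM and BMPR2 at 54.4 against 63.8. ID3, often read as a BMP response, had 77.3 against 76.5 CPM, but 545 of its 732 UMIs lay in the same 68 cells, and the other selected cells had 21.3 CPM. It stood at 652 in neurogenic, 454 in mesenchymal and 19.3 in pigment cells, and its ratio ran from 0.206 to 4.01 over the settings tried. FGF genes had 4 of 12 counted higher and 1 lower, with a median log2 ratio of 0.53. They had 5 of 12 higher and 1 lower against the equally weighted mean. FGFR2, a receptor of epithelia, was at 33.7 against 1.26 CPM, a ratio of 26.7 (19.8 to 36.6), and DUSP6, which damps ERK signalling, at 189 against 52.3. Of 8 Notch genes, NOTCH3 (53.6 against 22.6 CPM) and HES1 were higher and HEY1 was lower (1.69 against 11.1), and the list's median log2 ratio was 0.33, with 1 of 10 higher and 3 lower against the equally weighted mean. Of 8 retinoic acid genes, CRABP2 (176 against 62.6), NR2F1 (1422 against 479) and NR2F2 (278 against 58.4) were higher and the receptor RARB was lower (1.90 against 21.5), with a list median of 0.07. Against the equally weighted mean 2 of 8 retinoic acid genes were higher and 2 lower, and NR2F1 was level, with 1441 CPM in that mean.

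Neural progenitor genes were higher than in all others in 6 of 11 counted cases and lower in none, with a median log2 ratio of 1.14, but against the equally weighted mean 1 of 12 was higher and 6 were lower. CDH2, N-cadherin of the neural tube, was at 342 against 41.7 CPM, a ratio of 8.20 (7.73 to 8.70), but neurogenic cells had 444 CPM, and the ratio to the equally weighted mean was 1.82. SOX2 was at 67.2 against 18.1 CPM, a ratio of 3.73 (3.34 to 4.15), but neurogenic cells had 324, and the ratio turned to 0.592 when the neurogenic, mesenchymal and pigment groups were given equal weight. POU3F2 and NCAM1 were likewise higher than in all others (58.8 against 20.3 and 76.1 against 27.0 CPM) and far below neurogenic cells (493 and 376 CPM), and POU3F2 was at 38.9 CPM without the 68 cells, under the 2-fold limit. Neuronal genes split. Of 7 counted outside the rule, NEFL (830 against 55.0 CPM) and the growth cone gene GAP43 (278 against 27.4) were higher, and STMN2 (22.9 against 82.5), DCX (6.44 against 26.3), ELAVL3 (3.48 against 14.5) and TUBB3 (168 against 366) were lower. Against the equally weighted mean 11 of 13 were lower. The light neurofilament gene NEFL lies 31856 bases from the rule gene NEFM on chromosome 8, and NEFM stood at 2979 against 40.8 CPM. NEFL was seen in 87.9% of thinned selected cells, 19.5% of pigment and 13.5% of neurogenic cells. Axon guidance genes were higher in 17 of 29 counted cases and lower in 2, with a median log2 ratio of 1.43, and against the equally weighted mean in 10 and 7 of 31. The repellent SLIT2 had 81.8 against 4.29 CPM, a ratio of 19.1 (16.2 to 22.6), and the ephrins EFNB2 and EFNA5 124 against 16.5 and 78.3 against 8.84. CNTNAP2, a neurexin-like adhesion gene among the largest ratios, had 424 against 6.76 CPM and was seen in 88.8% of selected cells before thinning, and its ratio ran from 23.3 to 5581 over the settings tried.

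Some epithelial genes were higher beside these neural genes. Of 21 genes of placodes and surface ectoderm only 6 were counted, and all 6 were higher, with a median log2 ratio of 3.47. Compared with the equally weighted mean, 7 were counted, 5 higher and 1 lower. Defining genes of surface ectoderm were at or near 0, with no UMI of KRT5, KRT14 or CLDN7 and 1 UMI each of KRT15, TP63, GRHL2, CDH1 and ESRP1 in all selected cells. EPCAM, an epithelial adhesion gene, was at 6.12 CPM. The overlapping list of intermediate filament genes had 5 of 9 counted higher and none lower, and 5 of 10 higher and 1 lower against the equally weighted mean. The simple epithelial keratins KRT8 and KRT18 were at 207 against 20.0 and 259 against 21.8 CPM, ratios of 10.3 (9.53 to 11.2) and 11.9 (11.0 to 12.9). KRT19 had 19.5 against 2.25 CPM, the tight junction gene CLDN6 20.2 against 0.817, and the placode factor SIX4 37.0 against 1.86. KRT8 and KRT18 have many processed pseudogenes, so reads could be split among copies. KRT18 was seen in 54.4% of thinned selected cells, 6.83% of pigment, 20.6% of mesenchymal and 2.70% of neurogenic cells.

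Among cadherins and EMT factors, 5 of 14 counted genes were higher and 3 lower, and the median log2 ratio was -0.01. Against the equally weighted mean 2 were higher and 4 lower. CDH6, a cadherin of the dorsal neural tube and early crest, was at 327 against 60.6 CPM, a ratio of 5.40 (5.12 to 5.70), and in 66.8% of thinned selected cells against 18.3% of pigment cells. CDH11 and CDH13 were also higher (60.7 against 12.3 and 21.4 against 2.10 CPM). CDH3 and CDH19, cadherins of pigment cells and of Schwann precursors, were at 0.739 against 91.8 and 0.633 against 56.0 CPM. ZEB1 and ZEB2 were opposite against all others, with 49.0 against 13.2 CPM for ZEB1 and 63.0 against 285 for ZEB2. In the equally weighted mean ZEB1 stood at 77.6 CPM, above the selected cells. Vimentin did not separate the groups (3615 against 3612 CPM).

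Of 10 counted mesenchymal genes outside the rule, 4 were higher and none lower than in all others, with a median log2 ratio of 0.81. COL1A1, COL1A2, COL3A1 and TAGLN were higher, but none of the 4 against the equally weighted mean, where 0 of 11 were higher and 2 lower. COL1A1 had 971 against 445 CPM and COL3A1 157 against 38.4, but mesenchymal cells had 3899 and 338. S phase genes had 0 called of 17 counted and mitosis genes 2 lower of 22, with median log2 ratios of -0.54 and -0.41, and 2 of 18 and 5 of 22 were lower against the equally weighted mean. Of 15 stress and immediate early genes only EGR1 was called, as higher (20.6 against 4.93 CPM, and 16.6 in the equally weighted mean), and the list median was -0.25. Among genes of other lineages, SOX2 was the higher of 2 counted pluripotency genes. Of 3 counted genes of a list of endothelial, blood, muscle and cartilage genes, the muscle actin gene ACTC1 (0.845 against 11.4 CPM) and the cartilage collagen gene COL2A1 (31.8 against 63.6, and 31.7 in the equally weighted mean) were lower.

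**Figure D3:**
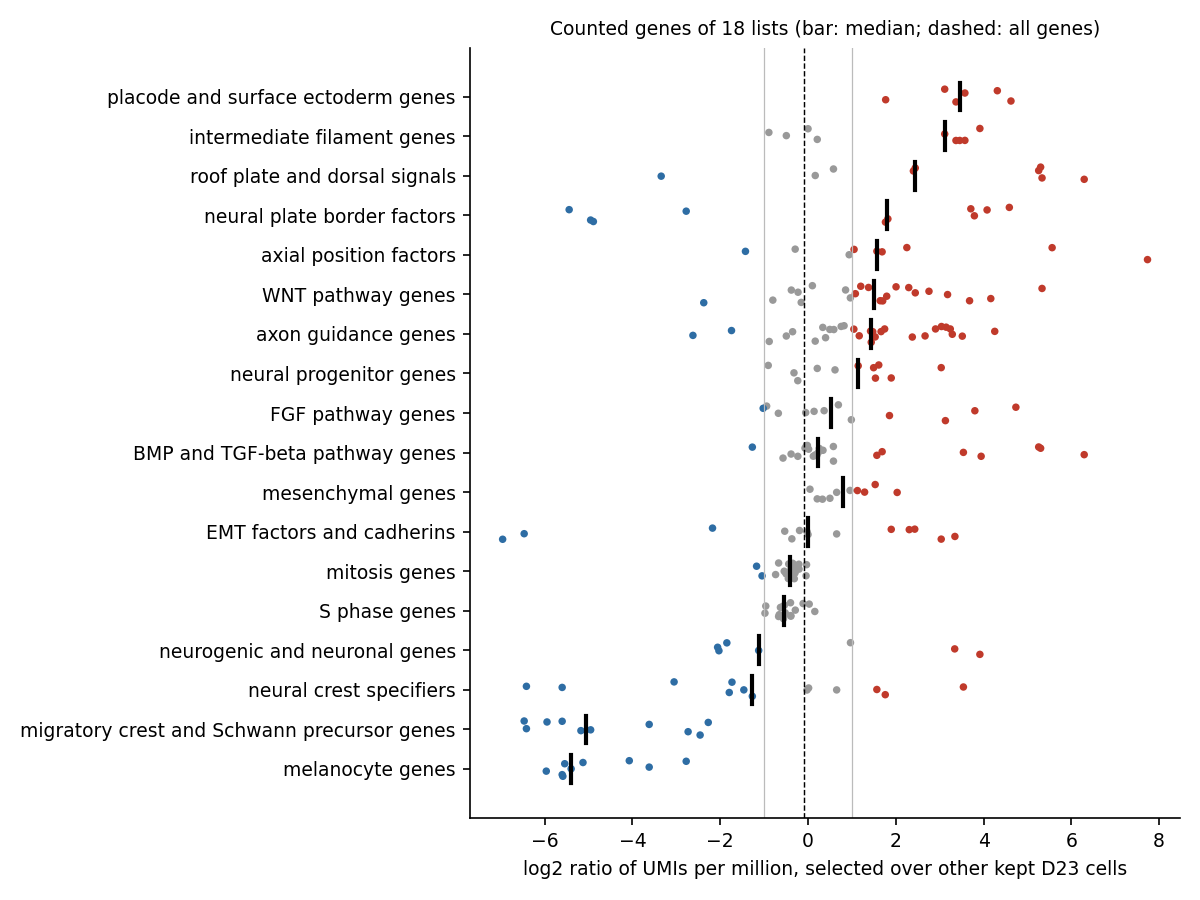
Log2 ratio of CPM in the 631 selected over the 3164 other kept D23 cells for the counted genes of 18 gene lists, 1 point a gene, with black bars for list medians, grey lines at a ratio of 2 either way and a dashed line at the median of all counted genes (-0.09). Placode, filament and roof plate lists lie to the right, melanocyte and migratory crest lists to the left, and the border and specifier lists are split.

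Position genes of different axial levels were higher in the selected cells as a whole than in all others. OTX2, a forebrain and midbrain factor, was at 26.9 against 0.570 CPM, a ratio of 47.3 (30.8 to 75.9), with 0 UMIs in neurogenic cells. EMX2, a dorsal forebrain factor, had 10.6 CPM against 2 UMIs in all others. HOXA3 and HOXB3, of the hindbrain and below, had 27.7 against 8.47 and 23.4 against 5.70 CPM, and were the 2 higher of 3 counted HOX genes, and of 9 counted axial factors outside the HOX list 6 were higher and 1 lower, with a median log2 ratio of 1.57. Against the equally weighted mean 0 of 4 HOX genes were higher and 2 lower, and 3 of 10 other axial factors were higher and 5 lower. HOXB2 was level against all others (35.7 and 36.9 CPM), and neurogenic cells had 763. An OTX2 UMI was seen in 142 selected cells (22.5%). At 5000 UMIs OTX2 was seen in 9.98% (7.74 to 12.6%) of selected and 0.270% of pigment cells.

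OTX2 also belongs to the list of retinal pigment and choroid plexus genes, of which 5 were counted, 3 higher and 1 lower, with a median log2 ratio of 4.01. TTR, the thyroxine carrier of choroid plexus, had 62.9 against 3.91 CPM, a ratio of 16.1 (13.5 to 19.3), and the chloride channel gene CLIC6 13.1 against 0.248. The neuropeptide gene CCK was at 68.7 against 0.966 CPM, a ratio of 71.2 (51.5 to 101), and the neurotrophin receptor gene NTRK2 at 50.1 against 1.06. These came from a minority, with TTR in 7.41%, CCK in 10.1% and OTX2 in 9.98% of thinned selected cells.

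The neurogenic group was defined by its high P and the mesenchymal group by its high S, so lower neuronal genes against the first and lower mesenchymal genes against the second follow in part from the grouping. Against the 110 neurogenic cells, 9767 genes were counted, of which 1564 (16%) were higher and 1548 (15.8%) lower in the selected cells. Of 15 counted neuronal genes 2 were higher and 13 lower, and of 14 progenitor genes 1 was higher and 10 lower, with median log2 ratios of -4.76 and -2.52 beside -0.01 over all counted genes. Mesenchymal genes were higher in 9 of 10 counted cases. ATOH1 had 1.48 against 410 CPM, and CHGA, a secretory granule gene, 0.422 against 264. No UMI of the Notch ligand gene DLL1 or of EBF2 was seen in the selected cells, and neurogenic cells had 62.1 and 66.5 CPM. In the other direction MSX1 was higher with a ratio of 28.8 (17.7 to 50.4) and KRT18 with 35.9 (15.4 to 111). STC1, a secreted glycoprotein gene, had 133 CPM against no UMI. This makes it at least 30.6-fold higher against a floor of 3 UMIs over the neurogenic group, while its exact counting interval starts at 24.9. All 22 mitosis genes were counted, and 13 were lower in the selected cells. The neurogenic group is shallow, with 1 UMI worth 1.45 CPM.

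Against the 331 mesenchymal cells, 599 of 9046 counted genes (6.62%) were higher and 467 (5.16%) lower. Of 13 mesenchymal genes 0 were higher and 12 lower, and of 8 roof plate genes 7 were higher and 1 lower, with median log2 ratios of -1.83 and 3.02 beside 0.02 over all counted genes. Among the largest ratios were those of NTRK2 (50.1 CPM against 1 UMI), CCK (68.7 CPM against 2 UMIs), TTR (62.9 against 1.21 CPM) and RFX4, a neural tube factor, at 51.1 against 0.965 CPM. The matrix gene DCN was at 0.528 against 25.6 CPM, the fibroblast protease gene FAP at 1.48 against 91.9, and the homeobox gene EN1 at 0.106 against 22.4.

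Clustering of all 3795 D23 cells without the rule genes, MSX1 and CDH6 put 559 of the 631 cells (88.6%) in a cluster of 604, and 68 (10.8%) in a cluster of 341 that also held 108 of the 110 neurogenic cells and 165 pigment cells. The remaining 4 were in 2 other clusters. Cells of that second cluster were shallow, at a median of 5909 UMIs. Its pigment cells are part of the others in every comparison above.

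The selected cells were then clustered alone, also without the genes of the S phase and mitosis lists. Cell cycle genes outside those lists, such as HJURP and ASPM, were not removed. The resolution was chosen after the data were seen, so the genes of the 6 sub-clusters are described only. Those outside the lists were chosen after their values were seen. Sub-cluster 1 (168 cells) had the most TWIST1 (139 CPM) and COL3A1 (241), with TFPI2, SPP1 and DLK1 leading, and less RSPO3 (28.3) and GDF7 (13.7) than sub-clusters 2 to 5. Sub-cluster 2 (129 cells) was led by DAB2 (377 against 159 CPM in the other selected cells). Sub-cluster 3 (104 cells) held most TTR, at 310 against 13.8 CPM in the other selected cells, with CCK (216), SOST (274), CLIC6 (49.6), FGFR2 (68.7) and OTX2 (52.8). Sub-clusters 4 and 5 (101 and 66 cells) were led by mitotic genes, with TOP2A at 193 and 729 CPM against 7.29 to 12.1 in sub-clusters 1 to 3.

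Sub-cluster 6 (63 cells, median 9555 UMIs) stood apart, and all its cells lay in the cluster shared with neurogenic cells. Its CRABP1 was 16810 CPM against 595 to 1551 in the others, its NEFM 366 against 2446 to 4074 and its MSX1 64.4 against 634 to 786. It had no UMI of GDF7, OTX2, TTR or CCK. POU3F3 (182 CPM), OLIG3 (115), GDF10 (204) and ID3 (814) were high there, with OLIG3 at 0 to 6.20 in the others. MSX2 and ZIC1, at 302 and 319 CPM, were within the range of the other sub-clusters for ZIC1 (225 to 342) and just below it for MSX2 (328 to 556). These 63 cells held 10966 of the 20120 CRABP1 UMIs and 75 of the 83 OLIG3 UMIs of all selected cells. Without the 68 selected cells of the shared cluster, which include these 63, DRAXIN, GDF10, ID1, MEIS1, POU3F2, POU3F3, SFRP2 and WNT3 were no longer called higher than the others, and ETV1, ID3, RRM2 and SLBP were lower.

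**Figure D4:**
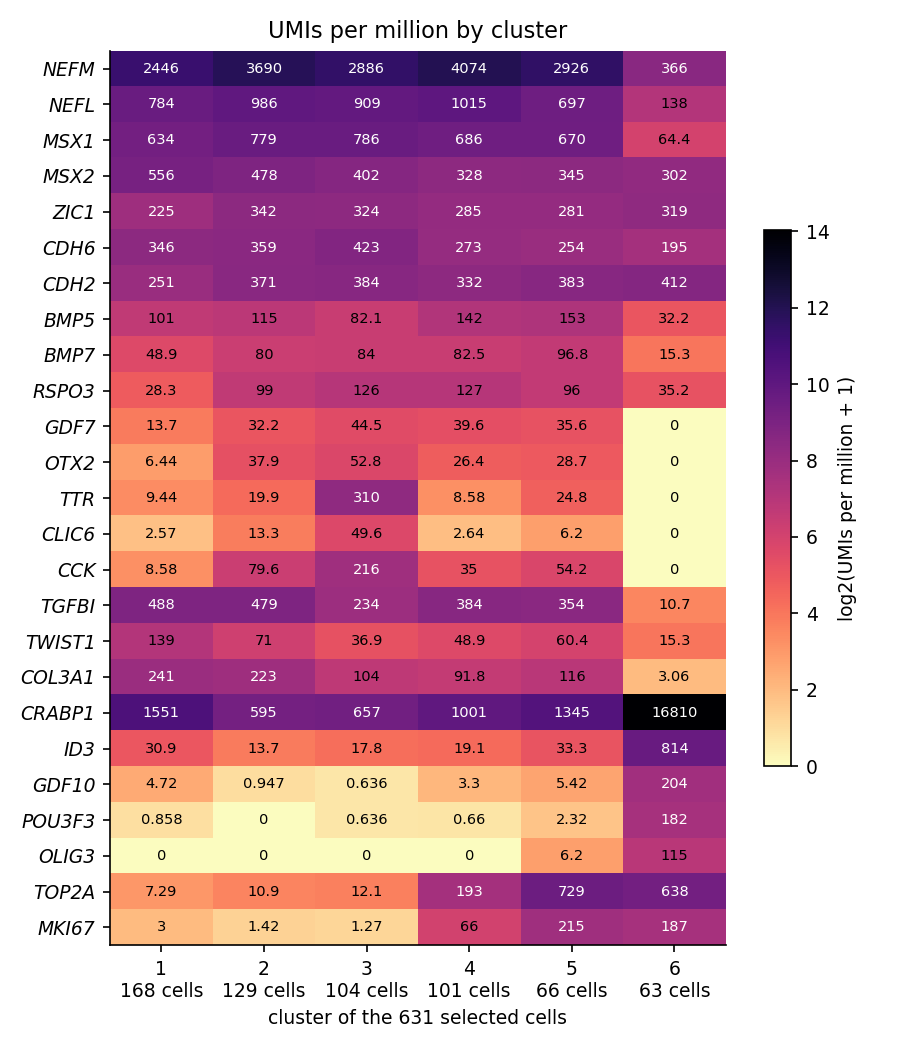
Levels in CPM of 25 genes in the 6 sub-clusters of the 631 selected cells, printed in each field and coloured by log2(CPM + 1). Sub-cluster 6 has low NEFM (366) and MSX1 (64.4) and high CRABP1 (16810), sub-cluster 3 has high TTR (310), and TOP2A is high in sub-clusters 4 to 6.

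The same rule found 110 cells at D32 (1.83% of 6023 kept cells, 1.503 to 2.197%; median 23425.5 UMIs) and 5 at D44 (0.0860% of 5811). D32 was compared within its own library with its 5913 other cells, of which 5639 were pigment cells. The rule and the mostly pigment comparison are shared with D23, so genes common to both follow in part from the selection. There 9103 genes were counted, with 1117 (12.3%) higher and 732 (8.04%) lower in the selected cells. Of the genes called higher, 524 were common to both libraries, which is 62.3% of the D23 list and 46.9% of the D32 list. Only 616 of the 841 genes called higher at D23 were counted at D32, and 600 of these had a ratio above 1 there. Of those called lower, 428 were common, or 59.3% and 58.5%. Here 631 of the 722 genes called lower at D23 were counted at D32, and 597 of these had a ratio under 1. Border factors were higher in 9 and lower in 2 of 12 counted cases, roof plate genes in 5 and 1 of 7, WNT genes in 13 and 0 of 18, axon guidance genes in 20 and 2 of 27, and mesenchymal genes in 7 and 0 of 9. These counts are mostly a comparison with pigment cells, and no equally weighted mean was taken at D32. The median log2 ratio over all counted genes was 0.03, and that of the border list was 3.69. MSX1 was at 262 against 31.0 CPM, ZIC4 at 79.5 against 0.688, CDH6 at 219 against 2.20, BMP5 at 32.4 against 0.990 and NEFL at 235 against 60.9. TFAP2A and SOX10 were again low, at 9.50 against 206 and 0.704 against 85.2. Here too, low values of genes that accompany pigment genes describe the selection.

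Several gene groups were arranged differently in the D32 cells. KRT18 was at 104 against 174 CPM and KRT8 at 87.2 against 102, and among the 4 counted placode and surface genes 0 were higher and 2 lower. OTX2 had no UMI in either D32 group, and TTR had none in the 2843080 UMIs of the selected D32 cells and 2.91 CPM in the others. GDF7 was at 1.41 CPM there. ID1 and ID3 were at 1299 against 27.6 and 911 against 75.5 CPM, and GDF10 at 314 against 1.69. The specifiers had 6 higher and 7 lower of 14. Sub-cluster 6 of D23 likewise had high GDF10 (204 CPM) and ID3 (814) and no UMI of GDF7, OTX2 or TTR. It had less MSX1 and NEFM than the other D23 sub-clusters. Whether the rule picked a different mix of cells on the 2 days was not tested. The differences between D23 and D32 were not tested either, since each day is 1 library and D23 stems from a separate induction and batch.

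**Figure D5:**
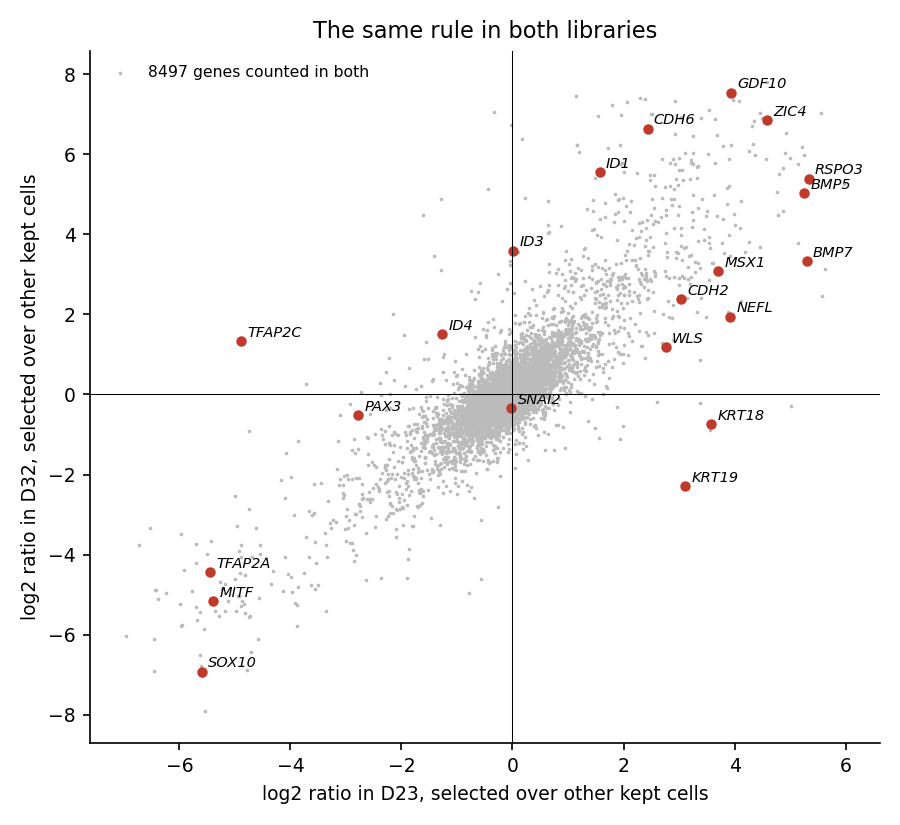
Log2 ratio of selected over other kept cells in D32 (y axis) against D23 (x axis) for the 8497 genes counted in both libraries, 1 point a gene, with named genes in red. MSX1, ZIC4, CDH6, BMP5 and RSPO3 lie at upper right, SOX10, MITF and TFAP2A at lower left, and KRT18 and KRT19 at lower right.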

How the data were processed

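Droplet single-cell RNA-seq libraries of D23, D32 and D44 were analysed. As deposited, the matrices hold raw, unnormalized UMI counts. The authors aligned and quantified the reads against GRCh38 with Cell Ranger 6.1.2, and the annotation release is not given in the sources used here. Cells were kept with under 10% mitochondrial UMIs and, at D23, with 1000 to 7000 genes and under 50000 UMIs, or, at D32 and D44, 3000 to 9000 genes and under 100000 UMIs. No columns of other samples were present (0). The members and the gene lists were chosen with earlier results of these data known.

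UMI counts were summed over the cells of a group. Ratios have exact conditional intervals, levels exact Poisson intervals and shares exact Clopper-Pearson intervals, all at 95%. A group at 0 was set to a floor of 3 UMIs for a ratio. Rule genes and sex-linked marker genes were left out of counts of genes. Scanpy 1.11.5, igraph 0.11.9, scipy 1.17.1 and numpy 2.4.6 were used in Python 3.11.15, and TMM factors came from edgeR 4.0.16 in R 4.3.3. Doublets were called with Scrublet in Scanpy. Louvain clustering used 2000 variable genes, 30 components, 20 neighbours and a resolution of 0.4, and 0.8 for the selected cells alone. The ratio script was tested on simulated counts. Positions came from GENCODE on GRCh38 for 569 of 569 genes, and promoters from RefSeq. Genes named were those of the rule and of the lists, and the 15 called genes with the largest and the 15 with the smallest ratio against the other, neurogenic and mesenchymal cells that were seen in at least 10% of cells of the higher group, except where said.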

Additional observations from a re-analysis of the deposited data

Results flagged for a closer look

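Of the 8497 genes counted in both libraries, 13 were called in opposite directions in D23 and D32, and 3 of them belong to the gene lists. The difference between the libraries was not tested in any of them, since each has 1 library. ID4, an HLH factor, had a ratio of 0.415 in D23 (31.4 against 75.5 CPM) and 2.83 in D32 (63.7 against 22.5 CPM). KRT19, a keratin of simple epithelia, had a ratio of 8.67 in D23 (19.5 against 2.25 CPM) and 0.205 in D32 (2.81 against 13.8 CPM). TFAP2C, a factor of the neural plate border and surface ectoderm, had a ratio of 0.0337 in D23 (1.58 against 46.9 CPM) and 2.53 in D32 (23.2 against 9.20 CPM).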

How the results depend on the processing

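The number of selected D23 cells, 631 in all, was 567 with an M limit of 2, 561 without NEFM in the N score and 563 without the members in the cluster that held most neurogenic cells, an alternative chosen after seeing the data; it was 504 to 632 in the 11 other settings. The 841 genes higher in these cells became 2358 at a minimum of 1 CPM, 244 at 50 CPM, 392 at a ratio of 4 and 529 against the equally weighted mean of the 3 other groups, and ran from 790 to 954 in 19 other settings. The 722 lower genes became 1519, 251 and 287 under the first 3 of these, and ran from 716 to 871 in 20 others. Ratios of 35 genes were recomputed under 23 settings, of which 615 kept within the counting interval, 189 moved outside it, and 1 ratio past the fold threshold changed direction, that of SOX2, from 3.73 to 0.592 under the equally weighted mean. The call of a higher level also ended there for AXIN2 (1.56), CDH2 (1.82), COL3A1 (1.36) and ZIC5 (1.87). Counts of list genes that changed stand beside many of the lists, but not all. The equally weighted mean moved 27 of the 35 ratios by over 1.5 times, and taking off 10% free RNA moved 20. The other settings moved at most 10. Ratios against very low levels varied most, from 33.5 to 420 for GDF7, 25.8 to 2205 for OTX2 and 13.3 to 1900 for NTRK2. TMM factors were 1.018 and 0.9826. No paired analysis was possible because each day is 1 library and no test was made. Depth limits the neurogenic comparison most, and culture-to-culture error is unknown.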
